A study of Mus musculus with 6 samples.

Results

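The joint state of A20 cells under TGF-β and the JNK inhibitor SP600125 was set against untreated cells. A20 is a B lymphoma line from a BALB/c mouse. The array of cells kept for 24 h with TGF-β in the presence of SP600125 and the array of untreated cells are 2 of the 6 arrays of the series, and they were chosen by their titles alone. The other arrays used were TGF-β for 24 h without drug, SP600125 alone for 24 h, and, as context, TGF-β for 12 h with and without SP600125. The titles name DMSO for every array without SP600125, so "untreated" means DMSO and no TGF-β (another label speaks of growth medium only), and no doses are stated in the labels. Each condition had 1 array, so a difference between 2 arrays has no replicate spread to be set against, and no p-value is given for it. The question of this comparison is what the cells express when both agents are present, and how far that equals the sum of what each agent did alone.

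TGF-β binds a pair of receptor kinases that phosphorylate Smad transcription factors, and it is known in B cells as a brake on proliferation, a trigger of apoptosis and a switch factor for IgA. The same receptors also reach JNK, a MAP kinase that phosphorylates c-Jun and other AP-1 proteins. SP600125 is an anthrapyrazolone that competes with ATP in the JNK kinases and is known to inhibit other kinases as well.

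Expression is given as the deposited signal, a linear intensity per probe set that has the same trimmed mean on every array. Before taking log2, any signal below 74.2, which is the median over the whole table, was replaced by that value, the floor. The change of the joint state over untreated cells, in log2 units, is called the joint change. The change expected from the single treatments is the log2 change of TGF-β at 24 h plus that of SP600125 alone, called the sum, and the departure is the joint change minus the sum. All 3 changes share the untreated array, so an error on that array enters the joint change once and the sum 2 times. Departures were computed only for genes above the floor on all 4 arrays. Where the sum called for a signal under the floor, a departure above the sum was therefore fixed in advance. For 12 h the sum was the change of TGF-β at 12 h plus that of SP600125 alone. The SP600125 alone array had 24 h of drug where the 12 h combination had 12 h, so the durations of drug do not match. The departures at 12 h and 24 h share the untreated and the SP600125 alone arrays, so an error on either array enters both. A probe set has its own brightness, so signals of different genes are no measure of their relative RNA levels.

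Some control probe sets set the doubly treated array apart. It had 5878 for the 3′ probe set of 18S rRNA, where the other treated arrays had 638 to 882 and the untreated array 506.5. The ratio of the actin 3′ to 5′ probe sets, a sign of RNA integrity, was 1.89 there, against 1.25 to 1.51 on the other treated arrays and 1.25 in untreated cells. That of Gapdh was 0.98 there, 0.88 with SP600125 alone and 0.79 in untreated cells. The hybridisation spikes had a mean log2 signal above that of the untreated array by 0.26 to 0.39 on the arrays with TGF-β. With SP600125 alone it was above by 0.05. The part of these values in the results below was not tested. The 12 h array of the combination had 847 for 18S and 1.32 for the actin ratio, and its list medians are given beside most of those printed for 24 h that differ by over 1.5 times.

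The arrays held the transcripts of a B cell line. Of 24 B cell identity genes, 22 were above the floor on the doubly treated array, 24 with TGF-β, 23 with SP600125 and 24 in untreated cells, with summed signals of 105281, 139538, 100867 and 115422 on the same 4 arrays. Most markers of other cells were under the floor: 5 of 13 T and NK cell markers, 6 of 15 myeloid, 3 of 12 fibroblast and 2 of 8 erythroid and platelet markers were above it under the combination, against 3, 3, 1 and 3 in untreated cells. No signal among them was above 434 under the combination or 302 in untreated cells, the values of the T cell kinase Zap70. The summed signals of the 4 marker lists were 1044, 1242, 734 and 668 under the combination, against 851, 1014, 622 and 563 in untreated cells. Their part in the results was not tested. In RNA from a whole culture, fewer cells with a transcript and less of it per cell cannot be told apart.

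Under both agents 1091 of 11886 genes above the floor on at least 1 of the 2 arrays were at least 2-fold higher than in untreated cells, which is 9.18%, and 488 were at least 2-fold lower, which is 4.11%. TGF-β alone at 24 h had 646 higher (5.64%) and 226 lower (1.97%) of 11445 genes, and SP600125 alone had 371 higher (3.26%) and 153 lower (1.34%) of 11396. The combination at 12 h had 559 higher (4.86%) and 226 lower (1.97%) of 11499. The median joint change over all genes was 0.14, with quartiles of -0.27 and 0.54. When each array was scaled to the same median signal, which moved the median joint change by -0.20, 673 genes were 2-fold higher and 861 lower. The split between higher and lower genes therefore depends on the scaling, and list medians are best read against the median of all genes. Counts of list members are likewise to be read against the shares of all genes, 9.18% higher and 4.11% lower.

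The largest positive joint change was that of an apolipoprotein gene, and its neighbours stood high too. Apoc2, the activator of lipoprotein lipase, had a signal of 6434 under the combination, 2295 under TGF-β alone, 622 under SP600125 alone and 98.4 in untreated cells, a joint change of 6.03 or 65.4-fold. At 12 h its signal was 2137 under the combination and 750.0 under TGF-β, and the limma estimate of the joint change over 12 h and 24 h was 5.24 ± 0.91 (± SE, from the fit described at the end). The signal was above untreated with each agent alone and highest with both, while the sum was 7.20, which leaves a departure of -1.17. Apoe, the ligand by which lipoprotein remnants are taken up, had 1592 with both agents, 472 with TGF-β, 337 with SP600125 and 94.4 untreated, a joint change of 4.08 beside a sum of 4.16. Apoc1, a small apolipoprotein that inhibits lipoprotein lipase, had 4142 with both agents, 1359.5 with TGF-β, 605 with SP600125 and 33.0 untreated, so that it was at least 55.8-fold higher than the floor at which the untreated array lay.

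These 3 genes are neighbours on mouse chromosome 7 in the RefSeq annotation of GRCm38.p6, and with Apoc4 they form 1 cluster. Apoc4, looked at after the values of the others were seen, had 169 with both agents, 24.1 with TGF-β, 19.2 with SP600125 and 57.8 untreated. Of the 4 nearest protein-coding genes on either side, also chosen after the values were seen, 7 of 8 were above the floor, and their joint changes lay between -1.07 for Clasrp and 2.09 for Relb. The direct neighbours of the cluster were Clptm1 at 0.63 and Tomm40, a pore of the mitochondrial import machinery, at 0.02. Nectin2, the next gene after Tomm40, was at 2.00, and Cblc and Zfp296 were at 0.91 and 0.32.

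The other genes among the 15 with the largest positive joint changes were between 9.23-fold and 20.5-fold higher than in untreated cells. Several encode stress-response proteins. Trib3, a pseudokinase induced by ATF4, had 4802 under the combination, 347 under TGF-β alone, 3593 under SP600125 alone and 234 in untreated cells, a joint change of 4.36. Sesn2, an inhibitor of mTORC1 signalling under amino acid shortage, had 713 with both agents, 214 with TGF-β, 660.5 with SP600125 and 74.9 untreated. Ddit3, the stress transcription factor CHOP, had 3415 with both agents, 646 with TGF-β, 1709 with SP600125 and 363 untreated. Trp53inp1, a p53-induced nuclear protein, had 6885 with both agents, 3402 with TGF-β, 2959 with SP600125 and 619 untreated.

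Cox6a2, the muscle isoform of a cytochrome oxidase subunit, had 1904 on the combined array, 195 on the TGF-β array, 2902 on the drug array and 141 on the untreated array, so that the drug array was the highest. Slc38a6, a transporter of the SLC38 family, showed the other pattern, with 4602 on the combined array, 2388 on the TGF-β array, 289 on the drug array and 283 on the untreated array. Its drug array was at the untreated level and yet its joint change of 4.02 was above that of TGF-β alone, 3.08. Cpm, which encodes carboxypeptidase M, had 5295 with both agents, 4678 with TGF-β, 886 with SP600125 and 515 untreated. Ypel5, Ttc39b, Ypel3, Cetn4, Trio and Glt28d2 completed the 15, with joint changes of 4.08, 3.71, 3.36, 3.35, 3.25 and 3.21. At 12 h that of Ypel5 was 2.25 and that of Glt28d2 0.94, and with probe sets averaged Cetn4 had 2.22 and Trio 1.31. Of the 15 genes 5 departed from the sum by at least 2-fold, all of them below it, where 2.46% of all 9334 genes lay as far below. The choice by joint change favours a low untreated array, which enters the sum once per agent, and so favours departures below the sum. For Sesn2, among the 5, the departure was 0.26 with probe sets averaged.

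Of the genes at the floor in untreated cells, the 8 with the highest signals under the combination were named, Apoc1 among them. Ms4a6c, a 4-span membrane protein of the family of CD20, had 1997 with both agents, 1132 with TGF-β, 88.6 with SP600125 and 19.4 untreated, and its relative Ms4a4c had 765 with both agents, 1308 with TGF-β, 43.1 with SP600125 and 40.9 untreated. Marchf1, the ubiquitin ligase that removes MHC class II and CD86 from the surface of B cells, had 807 with both agents, 682 with TGF-β, 75.0 with SP600125 and 32.2 untreated, at least 10.9-fold above the floor. Pck1, an enzyme of gluconeogenesis, had 1018 with both agents, 756 with TGF-β, 31.5 with SP600125 and 9.60 untreated, and Ifi27, an interferon-induced gene, had 1335 with both agents, 1596 with TGF-β, 158 with SP600125 and 40.8 untreated. B3gnt5, a glycosyltransferase of glycolipids, was at least 11.4-fold and Hey1, a Notch target, at least 8.68-fold higher.

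The largest negative joint changes, between 4.13-fold and 21.5-fold, were taken as the 15 lowest. BC035044 had 122 under the combination, 829.5 under TGF-β alone, 306 under SP600125 alone and 2637 in untreated cells, a joint change of -4.43. Scd1, the stearoyl-CoA desaturase that makes oleate, had 797 with both agents, 4081 with TGF-β, 1663 with SP600125 and 6129 untreated, which is 7.69-fold lower under the combination, and its limma estimate over 12 h and 24 h was -2.43 ± 0.44. Cd36, a scavenger receptor for fatty acids, had 178 with both agents, 511 with TGF-β, 176 with SP600125 and 813 untreated, with joint changes of -2.69 to -0.14 over its probe sets. Cd180, a Toll-like receptor homologue of B cells, had 115 with both agents, 359 with TGF-β, 154 with SP600125 and 759 untreated.

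Shmt1, a folate enzyme, had 907 under the combination and 4164 in untreated cells, and Cad, which starts pyrimidine synthesis, had 645 under the combination and 2698 in untreated cells. Slc29a1, a nucleoside transporter, and Mybl2, a transcription factor of cycling cells, had joint changes of -2.05 and -2.12. Ccnb1ip1, Car2, Mir1949, Xk, Ydjc and Ifrd2 had joint changes of -2.76, -2.50, -2.40, -2.19, -2.15 and -2.12. The genes named for lying at the floor under the combination and above it in untreated cells had untreated signals between 184 for Card19 and 402 for Bsn, a synaptic scaffold gene. The others were 4930524J08Rik, Ccdc14, Ggn, Dcpp3, Ciart and Lce1h.

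**Figure D1:**
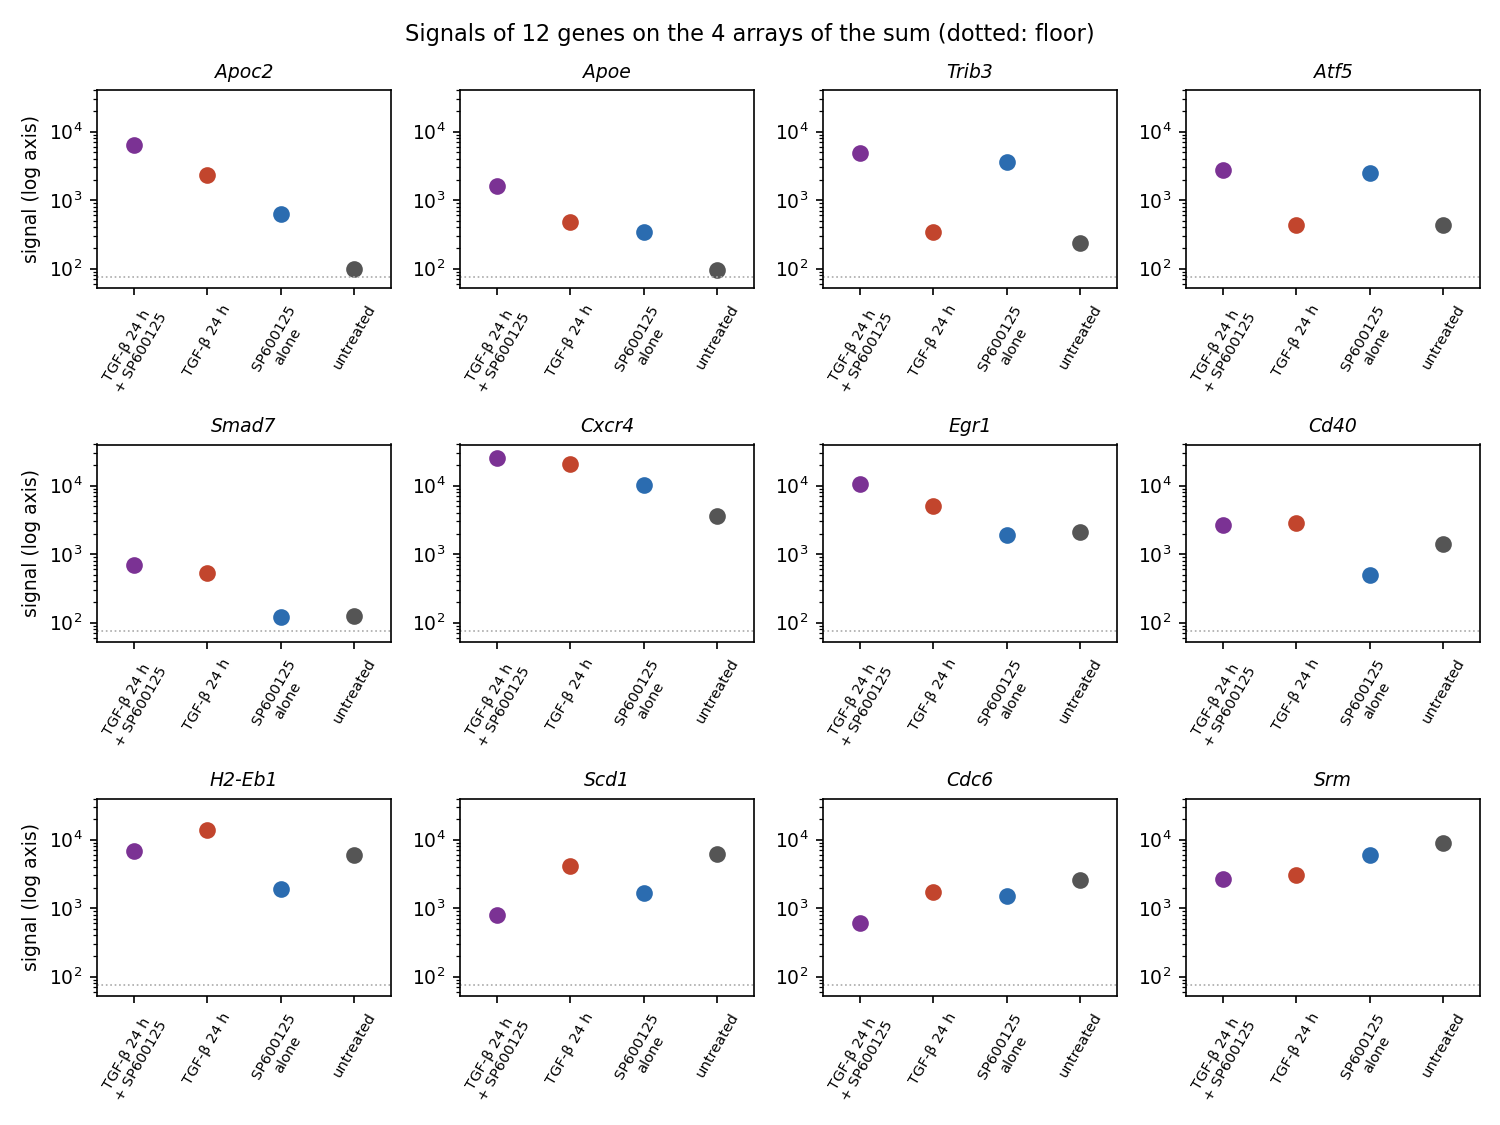
Signal of 12 genes (log axis) on the arrays of TGF-β 24 h with SP600125, TGF-β 24 h, SP600125 alone and untreated cells, 1 point per array, with the floor of 74.2 dotted. Apoc2 and Apoe are highest with both agents and lowest in untreated cells, Trib3 and Atf5 are high on both drug arrays, Smad7 on both TGF-β arrays, and H2-Eb1 and Cd40 lie low on the SP600125 array and near or above the untreated level under the combination.

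Many targets and feedback genes of TGF-β signalling were high on both TGF-β arrays at 24 h, with SP600125 and without it. Of 20 such genes above the floor, 10 were at least 2-fold higher under the combination and 0 lower, where 9.18% of all genes were higher and 4.11% lower, and the list median was 1.03, beside 0.64 with TGF-β, 0.03 with SP600125 and 0.14 for all genes. It was 0.67 under the combination at 12 h and 0.52 with probe sets averaged. Smad7, which blocks the receptor, had 697 under the combination, 525 under TGF-β alone, 121 under SP600125 alone and 124 in untreated cells, and its limma estimate over both times was 2.41 ± 0.26. Skil, a repressor of Smad-driven transcription, had 11804 with both agents, 10159 with TGF-β, 3568 with SP600125 and 2987 untreated. Both TGF-β arrays were high for these genes and both arrays without TGF-β were low.

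Id2, an inhibitor of E proteins, was lower with the drug than untreated and highest with TGF-β alone, at 2052 with both agents, 3517 with TGF-β, 259.6 with SP600125 and 481 untreated. Bhlhe40, a repressor of the basic helix-loop-helix class, had 582 with both agents, 288 with TGF-β, 114 with SP600125 and 103 untreated, but at 12 h 102 under the combination and 68.9 under TGF-β, so that the 12 h joint change was -0.02. Klf11, a TGF-β inducible zinc finger factor, had 719 with both agents, 313 with TGF-β, 369 with SP600125 and 229.8 untreated. Klf10, its close relative, had 848 with both agents, 519 with TGF-β, 209 with SP600125 and 365 untreated and lay 1.52 above a sum of -0.30. Ldlrad4, a membrane inhibitor of Smad phosphorylation, had 248 with both agents, 583 with TGF-β, 119 with SP600125 and 104 untreated and lay below the sum by a departure of -1.42, the only 1 of 17 members at least 2-fold below it. Over all genes 2.46% lay as far below.

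Of 15 receptors, ligands and Smads above the floor, 4 were 2-fold higher and 0 lower, where 9.18% of all genes were higher and 4.11% lower. The median was 0.36, and 0.15 at 12 h. Tgfbr1, the type I receptor, had 5222 with both agents, 8169.6 with TGF-β, 2030.5 with SP600125 and 1032 untreated by its brightest probe set, a departure of -1.62, while its probe sets disagreed, with joint changes of -0.49 to 2.34. Tgfbr2, the type II receptor, had 2344 with both agents, 2775 with TGF-β, 1412 with SP600125 and 996 untreated. Smad4, the partner shared by all receptor Smads, had 3820.2 with both agents, 2219 with TGF-β, 2776 with SP600125 and 2296 untreated. Acvr1b, an activin receptor, had a joint change of 1.08, with probe sets of -0.05 to 1.08. Nrros, which holds latent TGF-β at the cell surface, had 209.9 with both agents, 117 with TGF-β, 157 with SP600125 and 344 untreated, so the joint level lay between that of either agent and that of untreated cells, a departure of 1.98. Its sum called for a signal under the floor, so a departure above the sum was fixed in advance.

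Immediate-early genes, which MAP kinase signals switch on within minutes, had the highest median joint change of the lists examined. Of 21 above the floor 14 were 2-fold higher and 0 lower, and over the 18 above it on all 4 arrays the median was 1.52, beside 0.67 with TGF-β and 0.12 with SP600125. Of these, 5 of 18 exceeded the sum by at least 2-fold, where 2.1% of all 9334 genes did and 2.46% lay as far below it. Dusp4 is among these 5, and for it a departure above the sum was fixed in advance by the floor. Egr1, a zinc finger factor, had 10513 under the combination, 5094 under TGF-β alone, 1888 under SP600125 alone and 2101 in untreated cells, a joint change of 2.32 beside a sum of 1.12. Nr4a1, an orphan nuclear receptor, had 566 with both agents, 169 with TGF-β, 125 with SP600125 and 126 untreated, a departure of 1.75. Dusp16, a phosphatase that acts on JNK, had 2117 with both agents, 728 with TGF-β, 616 with SP600125 and 448 untreated, a departure of 1.08.

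For these 3 genes the combined array was the highest and the drug array was within a log2 of 0.46 of the untreated array. Dusp4, a phosphatase of the MAP kinases, had 315 with both agents, 155 with TGF-β, 106 with SP600125 and 251 untreated, so that each agent alone lay below untreated cells and the combination above them. The sum for Dusp4 called for a signal under the floor, so a departure above it was fixed in advance. Zfp36, which destabilises messages of cytokines, had 3576 with both agents, 2178 with TGF-β, 1066 with SP600125 and 900.4 untreated, and Btg1, an antiproliferative gene, had 8802 with both agents, 6562 with TGF-β, 4514 with SP600125 and 2338 untreated. At 24 h the list median of the departure was 0.26, and 0.05 with the floor at the 25th percentile. At 12 h the list as a whole showed no excess: the median joint change was 0.68 and the median departure -0.08. At 12 h Egr1 had 3722 under the combination and 2893 under TGF-β, and its departure there was 0.52.

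In the JNK and AP-1 list 6 of 18 members were 2-fold higher and 0 lower, with a median of 0.62, and of 0.25 at 12 h. Fos, an AP-1 subunit, had 643 in doubly treated cells, against 299.6 with TGF-β, 125 with drug and 259 without either, the fifth largest departure above the sum at 2.15. At 12 h its departure was 0.91 and its joint change 0.04, against 1.31 at 24 h. Jund, the AP-1 subunit most expressed in resting cells, had 11945 with both agents, 10543 with TGF-β, 2768 with SP600125 and 3568 untreated, and Map3k1, a kinase upstream of JNK, had 492 with both agents, 321 with TGF-β, 293 with SP600125 and 159 untreated. Map3k11, a mixed-lineage kinase upstream of JNK, had a joint change of 0.99. Map3k12, another kinase of that branch, had 2035 with both agents, 992 with TGF-β, 574 with SP600125 and 538 untreated, but joint changes of -0.85 to 1.92 over its probe sets, and those of Jund ran over 0.19 to 1.74.

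**Figure D2:**
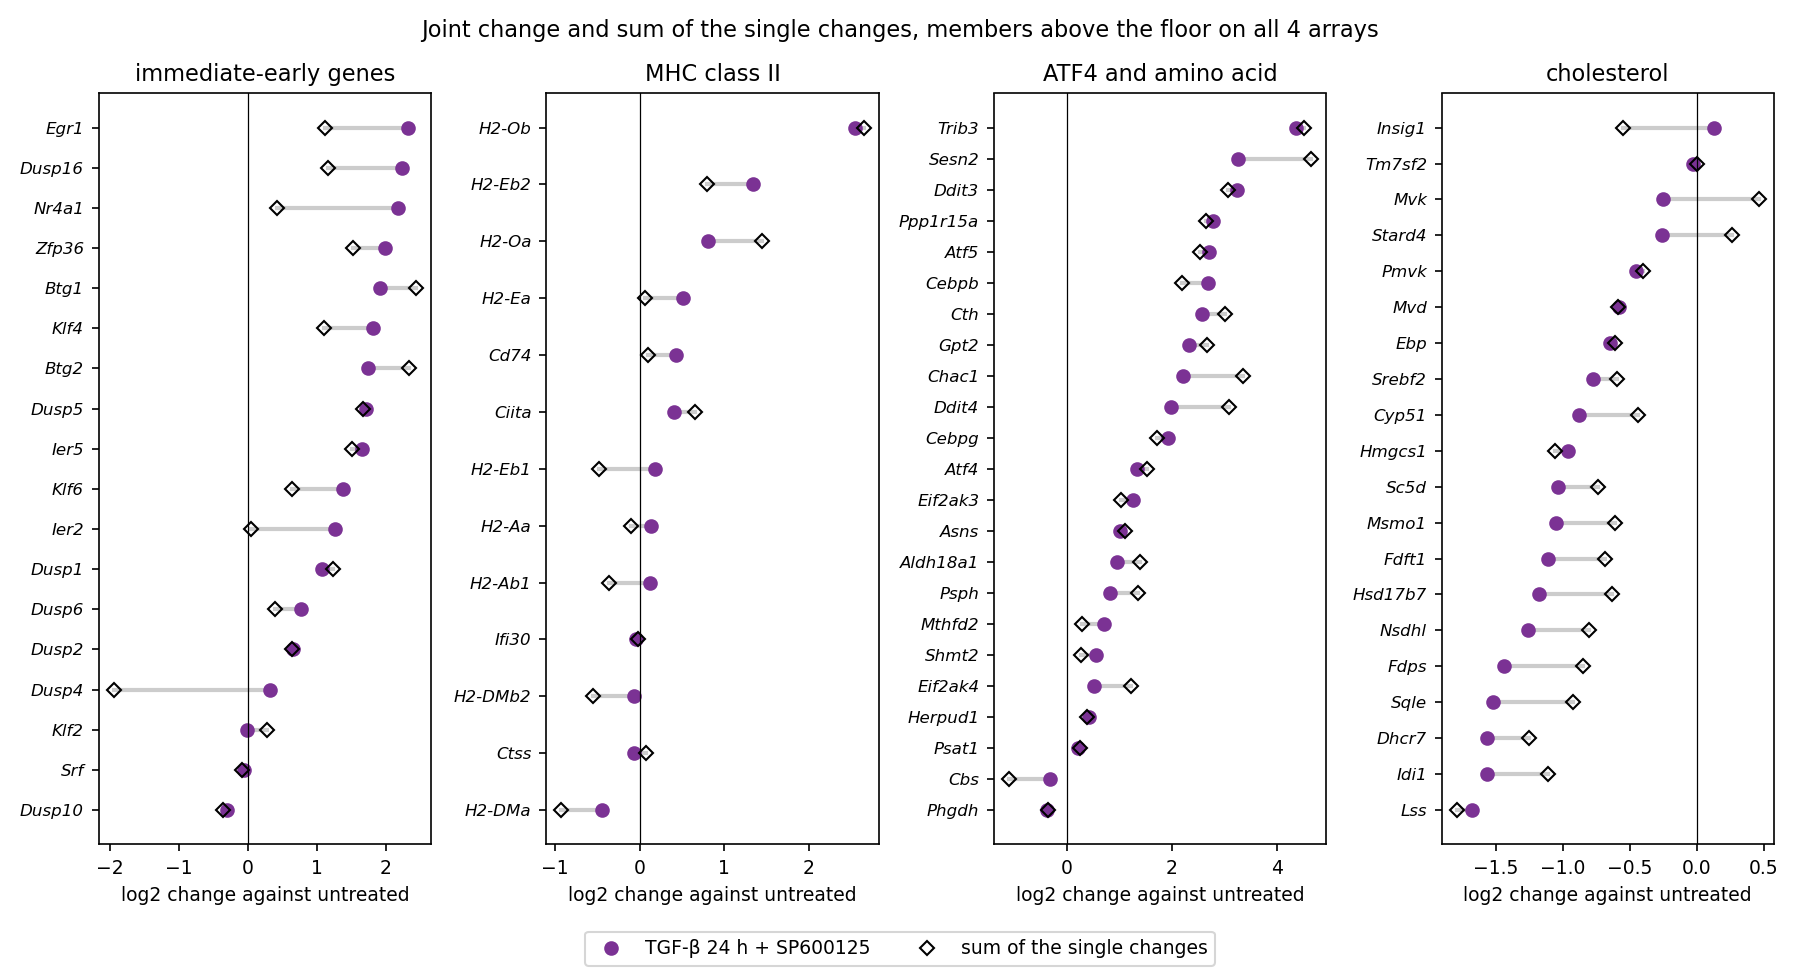
Joint change (filled circles) and sum of the single changes (open diamonds), in log2 units on the x axis, for the members of 4 lists above the floor on all 4 arrays, joined by a grey bar per gene. Egr1 and Nr4a1 lie far above their sums, and most ATF4 genes lie near theirs. Dusp4 also lies far above its sum, which called for a signal under the floor, so that direction was fixed in advance. Sesn2 lies below its sum by its brightest probe set, but not with probe sets averaged.

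The genes of the amino acid response were as high under the combination as with the drug alone. Of 23 genes of the ATF4 and amino acid response 14 were 2-fold higher under the combination and 0 lower, and the median was 1.34, beside 0.02 with TGF-β and 1.34 with SP600125. The median departure was -0.03, and 3 of 23 lay at least 2-fold below the sum, where 2.46% of all genes did. Sesn2 is among these 3 by its brightest probe set only. ATF4 is translated when the kinase GCN2 senses amino acid shortage or PERK senses stress of the endoplasmic reticulum, and it switches on the genes of this list. Atf5, a relative of ATF4, had 2792 under the combination, 435 under TGF-β alone, 2471 under SP600125 alone and 429 in untreated cells, and Ppp1r15a, the regulatory subunit by which eIF2α is dephosphorylated, had 2559 with both agents, 597 with TGF-β, 1458 with SP600125 and 373 untreated.

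Both drug arrays were high for Trib3, Ddit3, Atf5 and Ppp1r15a and both arrays without drug were low, with the combined array the highest for all 4. Chac1, which degrades glutathione, was highest with drug alone, at 3236 with both agents, 1311 with TGF-β, 3779 with SP600125 and 696 untreated, a departure of -1.14. Sesn2 lay -1.40 from the sum by its brightest probe set. The departure of Sesn2 was 0.26 when its probe sets were averaged, so its direction is not settled. For Ddit3 the joint changes ran over 0.21 to 3.23.

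The promoter of Trib3 is shown because this gene had the largest change with SP600125 alone in the list and holds a motif of the ATF4 response. The window spans the start of the gene, on the minus strand of chr2:152344011-152344310 in GRCm38.p6, from RefSeq, 5′ to 3′ along the gene, with the match in capitals.
Trib3: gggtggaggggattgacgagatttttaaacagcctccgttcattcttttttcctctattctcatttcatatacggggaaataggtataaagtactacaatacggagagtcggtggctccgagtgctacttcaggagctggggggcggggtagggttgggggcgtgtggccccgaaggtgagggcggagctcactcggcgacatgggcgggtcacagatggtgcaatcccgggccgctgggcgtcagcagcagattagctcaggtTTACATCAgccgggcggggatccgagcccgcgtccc
The motif searched was TGATGNAA, the composite element of C/EBP and ATF4, on both strands. It was in the windows of 6 of 25 ATF4 list members with a promoter, 3 of 12 amino acid transporters and 5 of 12 tRNA synthetases, and in 4.51% of 27025 genes. The members were Trib3, Chac1, Asns, Vldlr, Nupr1 and Herpud1. Atf5, Ddit3 and Sesn2 had no match in this window, and a match is a description of letters only.

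Amino acid transporters had a median joint change of 0.63, with 6 of 16 at least 2-fold higher and 0 lower. Slc1a4, which carries alanine, serine and cysteine, had 1804 with both agents, 456 with TGF-β, 1493 with SP600125 and 394 untreated, and the glycine transporter Slc6a9 had 1729 with both agents, 527 with TGF-β, 1576 with SP600125 and 434 untreated. Slc38a7, a glutamine transporter of lysosomes, had 638 with both agents, 246 with TGF-β, 539 with SP600125 and 279 untreated. In these genes both drug arrays were high. Slc7a7, a light chain for exchange of cationic amino acids, was high on both TGF-β arrays instead, at 2793 with both agents, 3956 with TGF-β, 899 with SP600125 and 1003 untreated. Slc38a2, a neutral amino acid transporter, had 11929.7 with both agents, 6979 with TGF-β, 9433 with SP600125 and 5475 untreated, with probe sets that disagreed over -0.66 to 1.12. Slc43a1 and Slc36a4 had the largest departures, 0.74 and -0.67, with joint changes of -0.41 and 0.42.

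The tRNA synthetases were lower with TGF-β and higher with the drug, by medians of -0.40 and 0.58, and their joint median of 0.21 lay near the median of all genes, with 0 of 19 past 2-fold in either direction. Nars had 13313 with both agents, 6857 with TGF-β, 14413 with SP600125 and 7064 untreated, and Sars had 7627 with both agents, 3856 with TGF-β, 8789.5 with SP600125 and 4452 untreated. Mars1 had 5086 with both agents, 4463 with TGF-β, 5074 with SP600125 and 6711 untreated, a departure of 0.59. Farsa, Qars and Cars had joint changes of -0.94, 0.78 and 0.64 by their brightest probe sets, with other probe sets of the opposite sign for each.

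Chaperones of the endoplasmic reticulum were lower under the combination. Of 20 genes 0 were 2-fold higher and 5 lower, with a median of -0.36, beside -0.14 with TGF-β and -0.59 with SP600125, and the sum had a median of -0.67. With probe sets averaged the joint median was -0.71. Sdf2l1, a cofactor of the chaperone BiP, had 1122 under the combination, 2968 under TGF-β alone, 1169 under SP600125 alone and 4559 in untreated cells. The disulphide isomerases Pdia4, Pdia6 and Pdia3 had joint changes of -1.26, -1.17 and -1.12, and Manf, a stress-induced secreted protein, had 7370.3 with both agents, 12404 with TGF-β, 7171 with SP600125 and 16440.0 untreated. Dnajb11 and Hsp90b1, a co-chaperone and a chaperone, lay above the sum by departures of 0.81 and 0.61. The list members named here were low on both drug arrays.

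Genes of DNA replication had a lower median on the doubly treated array than with either agent alone. Of 43 genes of G1/S and replication 0 were 2-fold higher and 32 lower, with a median of -1.22, beside -0.57 with TGF-β and -0.36 with SP600125. The sum had a median of -0.97 and the departure one of -0.26. The median departure was 0.03 when signals were summed and 0.10 at 12 h, so its direction is not settled. Cdc6, which loads the replicative helicase, had 606 under the combination, 1724 under TGF-β alone, 1514 under SP600125 alone and 2557 in untreated cells, a limma estimate of -1.46 ± 0.53 over both times. Uhrf1, which maintains DNA methylation at the fork, had 1101 with both agents, 2718 with TGF-β, 2534 with SP600125 and 4314 untreated. Rfc3, a clamp loader subunit, had 631 with both agents, 1027 with TGF-β, 1545 with SP600125 and 1964 untreated.

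Pola2 and Gins1, subunits of polymerase α and of the helicase, had joint changes of -1.62 and -1.61. Pola1, the catalytic subunit of polymerase α, had 796 with both agents, 1486 with TGF-β, 2003 with SP600125 and 2097 untreated, a departure of -0.83, and E2f2, an E2F activator, had 1232 with both agents, 1405 with TGF-β, 1349 with SP600125 and 873 untreated, a departure of -0.82. At 12 h the list median was only -0.55: Cdc6 had 1420.4 under the combination and 2221 under TGF-β.

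The promoter of Cdc6 is shown as that of the replication gene with the largest negative joint change. It lies on the plus strand of chr11:98907901-98908200 in GRCm38.p6, and the match to the E2F motif TTTCCCGC, searched on both strands, is in capitals.
Cdc6: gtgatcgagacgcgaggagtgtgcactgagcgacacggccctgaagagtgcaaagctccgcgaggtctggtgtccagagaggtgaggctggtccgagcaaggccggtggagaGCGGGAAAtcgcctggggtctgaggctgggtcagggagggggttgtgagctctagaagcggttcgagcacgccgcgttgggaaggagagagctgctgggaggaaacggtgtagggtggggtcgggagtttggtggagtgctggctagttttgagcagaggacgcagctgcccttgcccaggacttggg
This motif was in the windows of 6 of 36 replication genes, Cdc6, Mcm3, Mcm7, Gins3, Pold1 and Rfc3, and in 1.24% of all genes with a promoter.

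Mitotic genes followed at smaller size. Of 40 genes of G2/M and mitosis 0 were 2-fold higher and 10 lower, with a median of -0.82, beside -0.48 with TGF-β and -0.17 with SP600125, and of -0.14 under the combination at 12 h. Mad2l1, of the spindle checkpoint, had 1684 with both agents, 2726 with TGF-β, 4786 with SP600125 and 5356 untreated. Cdk1, the kinase that starts mitosis, had 3098 with both agents, 5081 with TGF-β, 6518 with SP600125 and 7789.5 untreated. Ccna2, its cyclin A partner, had 3130.0 with both agents, 3579.5 with TGF-β, 6497 with SP600125 and 7798 untreated. Kif20a and Aurkb, a kinesin and a kinase of cytokinesis, had joint changes of -1.54 and -1.26, and of -0.38 and -0.15 at 12 h. Racgap1, also of cytokinesis, had 2522 with both agents, 5760.4 with TGF-β, 4084 with SP600125 and 5247 untreated, a departure of -0.83, and Nusap1, a microtubule binder of the spindle, had 3785 under the combination and 4413 in untreated cells, a departure of -0.66.

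The promoter of Cdk1 is shown for the cell cycle homology region TTTGAA, searched on both strands, which was in 25 of 33 windows of mitotic genes and in 20.2% of all genes with a promoter. It lies on the minus strand of chr10:69352863-69353162 in GRCm38.p6, with 2 matches in capitals.
Cdk1: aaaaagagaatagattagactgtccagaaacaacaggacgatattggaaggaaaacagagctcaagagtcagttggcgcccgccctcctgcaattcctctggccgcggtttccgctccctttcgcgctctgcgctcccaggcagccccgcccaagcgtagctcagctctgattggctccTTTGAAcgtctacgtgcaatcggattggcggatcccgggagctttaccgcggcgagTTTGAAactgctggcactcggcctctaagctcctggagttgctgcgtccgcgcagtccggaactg
Of 36 replication genes 7 held this motif.

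The inhibitors of the cyclin-dependent kinases were high in different arrays. Cdkn1b, p27, had 2369.6 under the combination, 1318 under TGF-β alone, 1079.7 under SP600125 alone and 409 in untreated cells, a joint change of 2.53. Cdkn1a, p21, had 468 with both agents, 140.3 with TGF-β, 462 with SP600125 and 143 untreated, so that both drug arrays were high and both others low, and at 12 h 228 under the combination and 138 under TGF-β. Cdkn2b, p15, was highest with TGF-β alone, at 825 with both agents, 1292 with TGF-β, 291 with SP600125 and 582 untreated. The pocket proteins Rb1, Rbl1 and Rbl2 had joint changes of 0.65, -0.46 and 0.66, and departures of 0.13, -0.68 and -0.87. Of the 9 members 2 were 2-fold higher and 0 lower.

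Of 40 genes of MYC and ribosome assembly 2 were 2-fold higher and 9 lower, with a median of -0.74, beside -0.69 with TGF-β and -0.18 with SP600125. The median of the combination was close to that of TGF-β alone. Myc had 1897 under the combination, 2788 under TGF-β alone, 4039.8 under SP600125 alone and 4365 in untreated cells. Polr1b, a core subunit of RNA polymerase I, had 348 with both agents, 428 with TGF-β, 938 with SP600125 and 1343 untreated, and Bop1, an assembly factor of the large ribosomal subunit, had 1139 with both agents, 1499.7 with TGF-β, 1944 with SP600125 and 2923 untreated. Wdr12, its partner in the PeBoW complex, had a joint change of -1.28, and Nolc1, a nucleolar chaperone, had 2575 with both agents, 2326 with TGF-β, 3550.1 with SP600125 and 5672 untreated, a departure of 0.82. Mxd4, an antagonist of MYC, was higher, at 1404 with both agents, 1327 with TGF-β, 758 with SP600125 and 344 untreated. The ribosomal proteins had a median of 0.35, which was 0.20 at 12 h and 0.00 after quantile normalization, with 1 of 35, Rps6 at 1.11, at least 2-fold higher and 0 lower. Rpl12, Rps27, Rpl37 and Rpl13a had joint changes of -0.79, -0.74, 0.61 and 0.57.

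Polyamine genes diverged. Sat1, which acetylates polyamines for export, had 8477 under the combination, 5251 under TGF-β alone, 1689 under SP600125 alone and 1159 in untreated cells, while Srm, the spermidine synthase, had 2629.9 under the combination, 3085 under TGF-β alone, 5883 under SP600125 alone and 8819.7 in untreated cells. Both TGF-β arrays were apart from the other 2 for these genes. Mtap, which recycles the by-product of polyamine synthesis, had a joint change of -1.65, and Smox and Oaz2, an oxidase and an antizyme, had 1.31 and 1.17. Odc1, the first enzyme of the pathway, had 0.00, with probe sets of -0.21 to 0.00.

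Cholesterol and fatty acid genes had negative medians on both drug arrays. Of 20 genes of cholesterol synthesis 0 were 2-fold higher and 10 lower, with a median of -0.99, beside 0.13 with TGF-β, -0.92 with SP600125 and -0.55 under the combination at 12 h. The sum had a median of -0.62, and the median departure was -0.37 at 24 h and 0.07 at 12 h. SREBP-2 is the transcription factor known to switch on these genes when sterols are short. Sqle, squalene epoxidase, had 1817 under the combination, 5194 under TGF-β alone, 2774 under SP600125 alone and 5220.5 in untreated cells, and at 12 h it had 3048 under the combination and 4349.7 under TGF-β. Fdps, which makes farnesyl pyrophosphate, had 2729 with both agents, 8161 with TGF-β, 3712 with SP600125 and 7387 untreated, and Idi1, an isomerase of the pathway, had 2555 with both agents, 7066 with TGF-β, 3754 with SP600125 and 7558 untreated.

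Lss and Dhcr7, a cyclase and a reductase of late steps, had joint changes of -1.68 and -1.56. Mvk, mevalonate kinase, had 446 with both agents, 673 with TGF-β, 576 with SP600125 and 530.3 untreated, a departure of -0.71. Insig1, which retains the SREBP escort protein in the endoplasmic reticulum, had 900.0 with both agents, 1087 with TGF-β, 428 with SP600125 and 824 untreated, a departure of 0.67, so it was lower with drug alone but not under the combination. A sterol element of letters TCACNCCAC, searched on both strands, was in 1 of 16 cholesterol promoters, that of Hmgcs1, and in 1.44% of all genes with a promoter.

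Of 18 genes of fatty acid synthesis 0 were 2-fold higher and 6 lower, with a median of -0.66, beside -0.04 with TGF-β and -0.40 with SP600125. It was -0.27 under the combination at 12 h, and -0.27 at 24 h with probe sets averaged. Scd2, the second desaturase, had 5759 with both agents, 16834 with TGF-β, 7905 with SP600125 and 12195 untreated, a departure of -0.92. Fasn, the fatty acid synthase, had 1887 with both agents, 3429.8 with TGF-β, 3669.6 with SP600125 and 5335 untreated, and Acaca, which makes malonyl-CoA, had 782 with both agents, 1287 with TGF-β, 1258 with SP600125 and 1793 untreated. Elovl6, an elongase, had a joint change of -1.47. Srebf1, the SREBP-1 gene, had 701 with both agents, 1551 with TGF-β, 895 with SP600125 and 1157 untreated, a departure of -0.78.

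For genes of MHC class II presentation the medians of the single agents lay on opposite sides of 0. The median change of 13 genes was 0.18 under the combination, 1.23 with TGF-β and -0.85 with SP600125. In the joint state 2 of 13 were 2-fold higher and 0 lower, where 9.18% of all genes were higher and 4.11% lower. At 12 h the median of the combination was 0.43. H2-Eb1, a class II β chain, had 6888 under the combination, 13942 under TGF-β alone, 1889 under SP600125 alone and 6076 in untreated cells. H2-Ea, its α chain partner, had 18370.1 with both agents, 24469 with TGF-β, 7058 with SP600125 and 12841 untreated, and H2-Eb2 had 669.6 with both agents, 830.1 with TGF-β, 146 with SP600125 and 264 untreated. In these genes the combined array lay between those of TGF-β and drug alone, and above the untreated level.

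H2-Ob, a chain of the regulator H2-O, was high on both TGF-β arrays whatever the drug, at 12767 with both agents, 11080.0 with TGF-β, 2714 with SP600125 and 2189 untreated. Its partner H2-Oa had 1275 with both agents, 2298 with TGF-β, 635 with SP600125 and 731 untreated, a departure of -0.65. H2-DMa, the peptide editor, had 2833 with both agents, 5922 with TGF-β, 1329 with SP600125 and 3869.7 untreated, with probe sets of -0.45 to 0.14. The median departure of the 13 was 0.33 when log2 changes were summed and -0.26 when signals were summed, so its direction depends on the scale of the sum.

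MHC class I genes had a median of 0.03, with 0 of 14 past 2-fold. Psmb10, an immunoproteasome subunit, had a joint change of -0.67, and Tap2, a peptide transporter subunit, one of 0.46. Psmb8 and Tap1, of the same complexes, had -0.67 and 0.61, each with probe sets of both signs. Calr and Erap1, a chaperone and a trimming peptidase, had -0.45 and -0.36.

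Of 11 costimulatory and BAFF family genes 4 were 2-fold higher and 1 lower, with a median of 0.69, beside 0.75 with TGF-β, -0.87 with SP600125 and 0.27 under the combination at 12 h. Cd83, a marker of activated B cells, had 4073 with both agents, 3994 with TGF-β, 498 with SP600125 and 907 untreated. Cd40, the receptor for T cell help, had 2638 under the combination, 2871 under TGF-β alone, 491 under SP600125 alone and 1422 in untreated cells, so the combined level was near that of TGF-β alone and 1.41 above the sum. Icosl, the ligand of ICOS, had 569 with both agents, 989.6 with TGF-β, 166 with SP600125 and 587 untreated, a departure of 1.02, with joint changes of -0.04 to 0.63 over its probe sets.

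Cd274, PD-L1, was high on both drug arrays and the highest on the combined array, at 1295 with both agents, 691 with TGF-β, 972 with SP600125 and 478 untreated. Icam1, an adhesion ligand, had 1753 with both agents, 1318 with TGF-β, 638 with SP600125 and 708 untreated, and Tnfsf9, the ligand of 4-1BB, had 200.5 with both agents, 422 with TGF-β, 159 with SP600125 and 456 untreated. With the floor at the 25th percentile of all signals the list median of the joint change was -0.04, so that its direction is not settled.

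Among 16 receptors of migration 6 were 2-fold higher and 1 lower, where 9.18% of all genes were higher and 4.11% lower. Cxcr4, the receptor of CXCL12, had 25796 under the combination, 20660.5 under TGF-β alone, 10381 under SP600125 alone and 3645 in untreated cells, a departure of -1.19. Rgs2, a brake on G protein signalling, had 2361 with both agents, 2111 with TGF-β, 239 with SP600125 and 262 untreated, and S1pr1, the receptor for exit from lymphoid tissue, had 1022 with both agents, 681 with TGF-β, 231 with SP600125 and 179 untreated. Joint changes of Rgs2 over its probe sets ran over 0.31 to 3.79. S1pr2, the sphingosine receptor of germinal centre B cells, had a joint change of 1.26. Ccr10, the receptor of IgA plasma cells, had 192 with both agents, 449.5 with TGF-β, 244 with SP600125 and 432 untreated, and Cxcr5, the follicle receptor, had 830.4 with both agents, 1432 with TGF-β, 229 with SP600125 and 541 untreated.

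Of 24 B cell identity genes 1 was 2-fold higher and 4 lower, where 9.18% of all genes were higher and 4.11% lower. The median was -0.19, and -0.35 at 12 h. Ms4a1, CD20, had 7083 under the combination, 16048 under TGF-β alone, 7565 under SP600125 alone and 14819 in untreated cells, and Cd22, an inhibitory coreceptor, had 950.4 with both agents, 2043 with TGF-β, 615 with SP600125 and 1949.8 untreated. Bach2, a repressor that holds off plasma cell fate, had 2927 with both agents, 2096 with TGF-β, 1748 with SP600125 and 802 untreated. Bcl11a had a joint change of -1.04, and Ptprc, CD45, one of -0.73. Pax5, the B cell commitment factor, had 149 with both agents, 225 with TGF-β, 142 with SP600125 and 115 untreated, a departure of -0.90, and Ikzf3 had a departure of -0.91, with joint changes of -0.67 to 0.37 over its probe sets.

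Of 17 genes of B cell receptor signalling 2 were 2-fold higher and 2 lower, where 9.18% of all genes were higher and 4.11% lower. Ptpn6, the phosphatase SHP-1, had 2839.5 with both agents, 7197 with TGF-β, 2568 with SP600125 and 7235 untreated, although another probe set was near 0. Fyn, a Src family kinase, had 7378 with both agents, 4344 with TGF-β, 10188 with SP600125 and 3366 untreated, and Bcl10, an adaptor to NF-κB, had 4485 under the combination and 2236 in untreated cells. Blk, another Src family kinase, had a joint change of 0.86. Pik3cd, the δ isoform of PI3 kinase, had -1.70, with probe sets of both signs. Of 12 plasma cell genes 1 was higher and 1 lower past 2-fold, Ell2 at 1.04 and Creld2 at -1.36. These counts are to be read against the same shares of all genes. Irf4, which plasma cells need, had 289 with both agents, 692 with TGF-β, 356 with SP600125 and 262 untreated, a departure of -1.70. Prdm1, Slamf7 and Jchain had joint changes of -0.80, -0.86 and -0.48.

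NF-κB genes had a median of 0.54, and of 0.25 at 12 h. At least 2-fold higher were 5 of 23, and 1 was lower, where 9.18% of all genes were higher and 4.11% lower. Nfkb2, the p100 precursor, was above untreated on each treated array and highest under the combination, at 1591 with both agents, 745 with TGF-β, 842 with SP600125 and 324 untreated. Relb, its partner, had 1055 with both agents, 608 with TGF-β, 273 with SP600125 and 248 untreated, and Nfkbiz, a nuclear IκB protein, had 839 with both agents, 470.3 with TGF-β, 317 with SP600125 and 182 untreated. Tnf, the cytokine, had 85.1 with both agents, 336 with TGF-β, 167 with SP600125 and 237 untreated, a departure of -1.47, and at 12 h 92.7 under the combination and 143 under TGF-β.

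Interferon-stimulated genes had a median of 0.51, beside 0.98 with TGF-β and -0.05 with SP600125, with 7 of 18 at least 2-fold higher and 0 lower. Over the 14 above the floor on all 4 arrays the medians were 0.51, 0.96 and -0.28, so that of SP600125 depends on the members taken. Irf7, the amplifier of type I interferon, had 825 under the combination, 824 under TGF-β alone, 194 under SP600125 alone and 96.8 in untreated cells, and Irf9, the DNA-binding subunit of ISGF3, had 913 with both agents, 776 with TGF-β, 266 with SP600125 and 198 untreated. Parp14 had a joint change of 1.22, and Irf1, a transcription factor, had 951 under the combination and 415 in untreated cells. Xaf1, an interferon-induced gene, had 372 with both agents, 543 with TGF-β, 87.1 with SP600125 and 118 untreated. Stat2, another subunit of ISGF3, had 219.6 with both agents, 424 with TGF-β, 209 with SP600125 and 224 untreated, with joint changes of -0.03 to 1.34 over its probe sets. The interferon-stimulated response element, searched on both strands as TTTC, any 2 bases and TTTC, was in the promoters of 11 of 20 list members and in 3.99% of all genes, but in neither Irf7 nor Irf9.

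Of 13 BCL-2 family genes 5 were 2-fold higher and 0 lower, where 9.18% of all genes were higher. The median was 0.54, which was 0.27 at 12 h and 0.91 with the floor at the 25th percentile. Bmf, a BH3-only killer, had 1669 under the combination, 1643 under TGF-β alone, 655 under SP600125 alone and 278 in untreated cells, and Bbc3, PUMA, had 1970.2 under the combination, 1033 under TGF-β alone, 1605 under SP600125 alone and 379.7 in untreated cells. Both lay below the sum, by departures of -1.21 and -1.15. Bcl2l11, BIM, had 28859.6 with both agents, 15963 with TGF-β, 23477 with SP600125 and 13428 untreated, and Pmaip1, NOXA, had 1494 with both agents, 1313 with TGF-β, 798 with SP600125 and 694 untreated. Bcl2, the survival member, had 252 with both agents, 115 with TGF-β, 184 with SP600125 and 107 untreated, with probe sets of 0.24 to 1.24.

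Of 17 genes of caspases, death receptors and their inhibitors 1, Casp2 at 1.02, was 2-fold higher and 0 lower, a share under that of all genes. Fas, the death receptor, had 735 with both agents, 1164 with TGF-β, 273 with SP600125 and 658 untreated, so that it was lower with drug alone but not under the combination. Cflar and Birc2, inhibitors of death receptor signalling, had joint changes of 0.73 and 0.68, Casp1 one of -0.22, and Xiap and Casp9 had 0.88 and 0.79, with probe sets of both signs. Of 17 p53 targets 7 were 2-fold higher and 0 lower, with a median of 0.58. Of these targets 3 lay at least 2-fold below the sum, where 2.46% of all genes did. At 12 h the median was 0.13. Gadd45a, a growth arrest gene, had 474 with both agents, 223 with TGF-β, 527 with SP600125 and 199 untreated, and a joint change of -0.11 at 12 h.

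In metabolic and stress lists a few members stood apart. Of 24 genes of glycolysis and hypoxia 2 were 2-fold higher and 5 lower, where 9.18% of all genes were higher and 4.11% lower. Vegfa, a hypoxia and ATF4 target, had 444 with both agents, 121 with TGF-β, 435 with SP600125 and 126 untreated, high on both drug arrays. Pkm, pyruvate kinase, had 4489 with both agents, 8959.7 with TGF-β, 9109 with SP600125 and 12854 untreated, and Tpi1, triosephosphate isomerase, had 5293 with both agents, 9187 with TGF-β, 8566 with SP600125 and 14496 untreated. Aldoc, an aldolase, had 744 with both agents, 1685 with TGF-β, 265 with SP600125 and 394 untreated, while Ndrg1, a hypoxia-responsive gene, had 249 under the combination and 108 in untreated cells. Ankrd37 and Higd1a, also hypoxia-responsive, had joint changes of -1.52 and -1.05, with probe sets of both signs for Higd1a.

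Of 22 NRF2 and redox genes 0 were 2-fold higher and 1 lower, where 9.18% of all genes were higher and 4.11% lower. The lower gene was Gsr, glutathione reductase, at 925 with both agents, 1489.5 with TGF-β, 1707 with SP600125 and 2415 untreated. Pgd, Txnrd1, Hmox1, Tkt and Gpx4 had joint changes of -0.91, -0.69, -0.59, -0.42 and -0.05, and Sod1 one of 0.82, with probe sets of both signs. Hsph1 and Stip1, chaperones of the HSP70 and HSP90 systems, had -1.39 and -1.28, and Bag3, their co-chaperone, 1.14. Dnaja1 had -0.77 and Dnajb4 0.76, with probe sets of both signs for Dnajb4. Ctsl, a lysosomal protease, had 338 with both agents, 234 with TGF-β, 562 with SP600125 and 110.1 untreated, a departure of -1.82, and Npc2, a cholesterol carrier of lysosomes, had 7973 with both agents, 5984 with TGF-β, 5261 with SP600125 and 3731 untreated. Hexa, Glb1 and Grn, of the same compartment, had 0.70, 0.64 and 0.59.

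Ahr, the aryl hydrocarbon receptor, had 684 under the combination, 451 under TGF-β alone, 168 under SP600125 alone and 88.1 in untreated cells, a joint change of 2.96. Only 3 members of its list were above the floor on the combined or the untreated array. Its classical targets Cyp1a1, Cyp1a2 and Cyp1b1, named after their values were seen, were under the floor on both. Arnt, its partner, had 1399 with both agents, 1007 with TGF-β, 712 with SP600125 and 1207 untreated, a departure of 1.24, with probe sets of both signs, as had Tiparp at 0.14. The housekeeping list had a median of -0.37, under that of all genes, and of -0.01 at 12 h, with Gusb at -1.06, Hprt at -0.76, Pgk1 at -0.52, Tbp at -0.49 and Sdha at -0.49. Tfrc, the transferrin receptor, named after its values were seen because it is also a control of this array type, had 5911 with both agents, 9396 with TGF-β, 10869 with SP600125 and 14087 untreated, and its control probe set for the 5′ end had 52.5, 239, 217 and 654 on the same arrays.

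**Figure D3:**
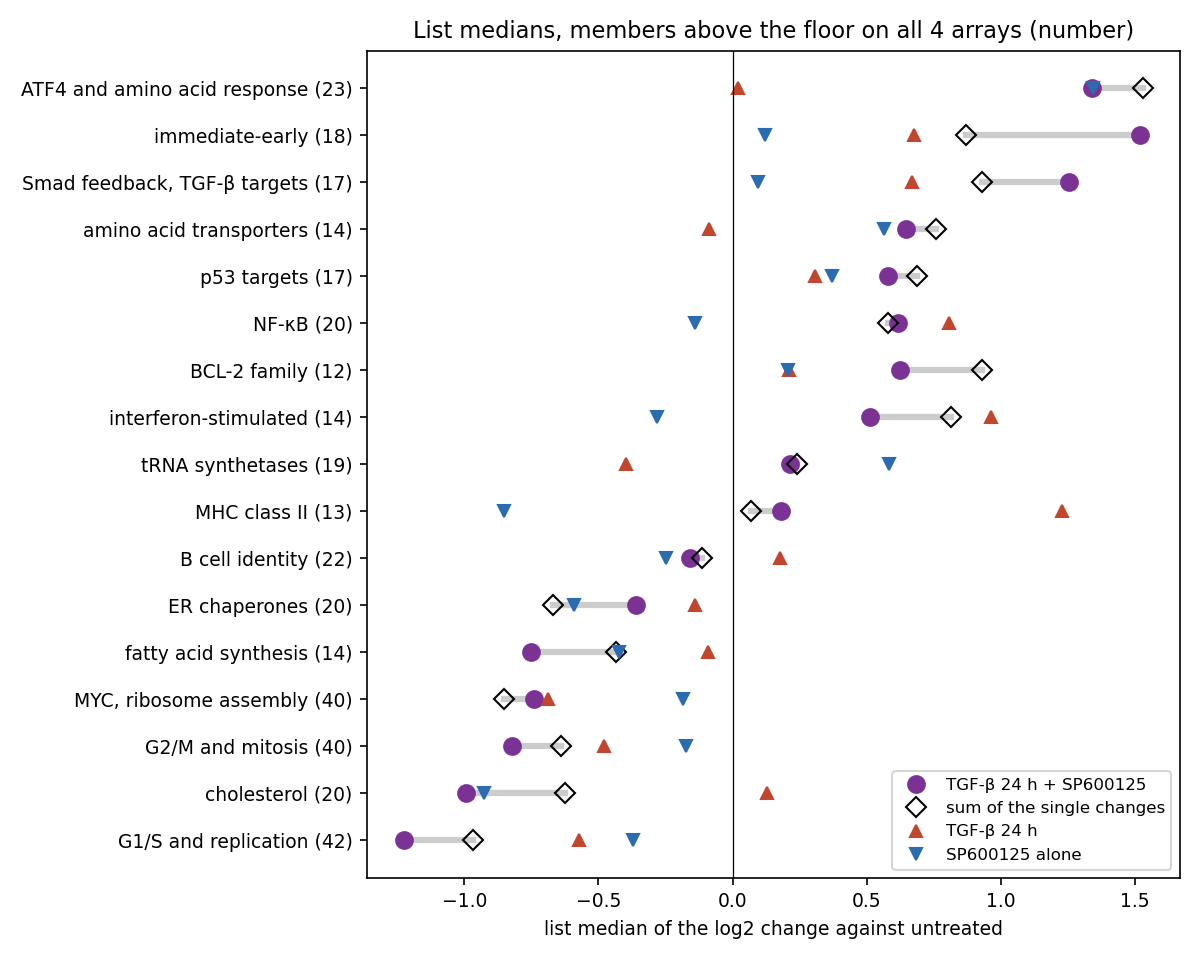
Median log2 change against untreated cells (x axis) of 17 gene lists (rows), over members above the floor on all 4 arrays (number in parentheses), for the combination, TGF-β 24 h and SP600125 alone, with the median of the sum of the single changes as an open diamond. Combined medians run from -1.22 for G1/S and replication to 1.52 for immediate-early genes, and the medians of TGF-β and SP600125 lie on opposite sides of 0 for MHC class II.

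For most genes the joint change was near the sum. Of 9334 genes above the floor on all 4 arrays 82.9% lay within 1.5-fold of the sum and 95.4% within 2-fold, with a median departure of -0.02. At least 2-fold above the sum were 196 genes, 2.1%, and below it 230, 2.46%. At 12 h the numbers were 137 (1.48%) above and 168 (1.81%) below of 9272. Departures were concentrated in dim genes. Of the 3111 genes with the lowest mean signal over the 4 arrays, up to 513, 10.4% departed by 2-fold, against 2.38% of the middle 3111 and 0.932% of the brightest 3112. For scale, the median SD between probe sets of the same gene was 0.29 for the departure, over 4281 genes with several.

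The 12 genes farthest above the sum had untreated signals of 165 to 519.7, and in 10 of them both single-agent arrays were below the untreated array. They were picked by their departures, which favours a high untreated array and low single-agent arrays. Their departures at 12 h use the same untreated and SP600125 alone arrays, so these are no separate repeat. Gm15706 had 324 under the combination, 122 under TGF-β alone, 122 under SP600125 alone and 276 in untreated cells, a departure of 2.59. Sec14l3, a lipid-binding protein, had 414 with both agents, 258 with TGF-β, 141 with SP600125 and 371 untreated, and at 12 h a departure of 1.99. Depp1, a FOXO target, had 194 with both agents, 92.3 with TGF-β, 109.9 with SP600125 and 203 untreated, with 2.02 at 12 h, and Pomgnt2, a glycosyltransferase of dystroglycan, had 248 with both agents, 96.4 with TGF-β, 123 with SP600125 and 186 untreated, with 1.27.

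Car2, carbonic anhydrase, was low on all 3 treated arrays, at 92.1 with both agents, 94.6 with TGF-β, 131 with SP600125 and 519.7 untreated, and its departure was 1.95. The sum called for a signal under the floor for Car2, as it did for Gm15706, Depp1, Pomgnt2, Dusp4 and Nrros. Genes under the floor on the combined array were left out, so a departure above the sum was fixed in advance for these genes. Cysrt1 had 557 with both agents, 348 with TGF-β, 79.0 with SP600125 and 240.3 untreated, but at 12 h a departure of -0.56. Phldb1 and Fancm, a Fanconi helicase, had departures of 2.30 and 2.02, with probe sets whose joint changes had both signs, and Lmbr1l had 1.90. Fos, Dusp4 and Nrros, described above, were also among the 12.

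In all 12 genes farthest below the sum both single-agent arrays were above the untreated array. Here too the choice by departure favours that pattern. The departures of these 12 genes at 12 h use the same untreated and SP600125 alone arrays, so they are no separate repeat either. Abr had 128 under the combination, 295 under TGF-β alone, 225 under SP600125 alone and 82.5 in untreated cells, a departure of -2.66. Acox3, a peroxisomal oxidase, had 306 with both agents, 629.7 with TGF-β, 377 with SP600125 and 146 untreated, with -1.12 at 12 h. Cd59a, an inhibitor of complement lysis, had 1837 with both agents, 2464 with TGF-β, 2241 with SP600125 and 740.3 untreated, a departure of -2.02. In these genes the combined array was lower than either single-agent array.

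Tram2 and Mfsd4a were high with the drug alone and lower when TGF-β was added. Tram2, a translocon-associated protein, had 491 on the combined array, 198 on the TGF-β array, 1241 on the drug array and 139 on the untreated array, a departure of -1.85, with -2.20 at 12 h, and Mfsd4a had 441 on the combined array, 157 on the TGF-β array, 1136 on the drug array and 105 on the untreated array, with -2.40. Mt3, a metallothionein, had 80.4 with both agents, 238 with TGF-β, 148 with SP600125 and 107 untreated, with -1.98 at 12 h. Pinlyp, Gm8096, BC064078, Eps8l2, Sox21 and Mrnip had departures of -2.33, -2.04, -2.01, -1.90, -1.86 and -1.86.

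**Figure D4:**
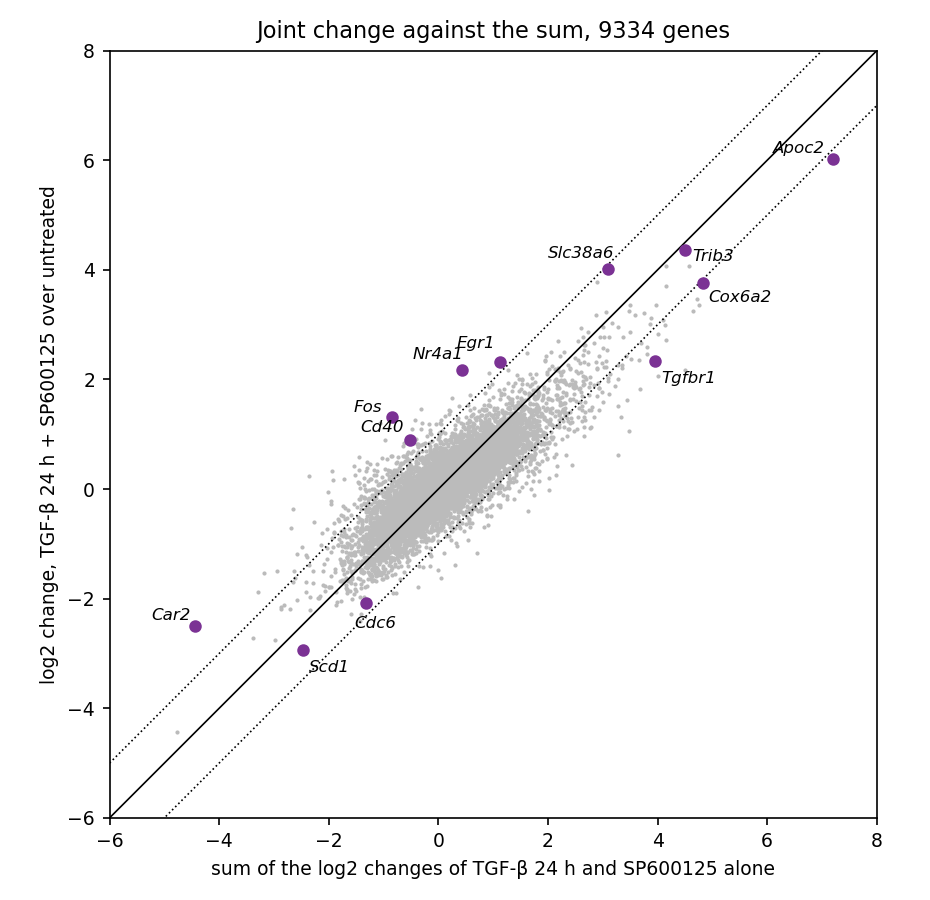
Joint log2 change over untreated cells (y axis) against the sum of the log2 changes of TGF-β 24 h and SP600125 alone (x axis) for 9334 genes, 1 point per gene, with the line of equality and dotted lines at 2-fold on either side. Most points (95.4%) lie between the dotted lines, Fos, Nr4a1 and Car2 lie above them, and Tgfbr1 lies below. For Car2 the sum called for a signal under the floor, so a departure above it was fixed in advance. The untreated array enters both axes.

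The only test of the joint state used the 12 h and 24 h arrays as repeats of the same TGF-β state in limma, so that its error is the difference between the times. Of 11731 genes 0 were higher and 0 lower in the joint state at a Benjamini-Hochberg adjusted p under 0.05 in limma, where 1411 were higher (12.0%) and 941 lower (8.02%) at an unadjusted p under 0.05, and the smallest adjusted p was 0.136. For the interaction, which tests the departure from additivity, 0 genes passed in either direction in limma, with 142 (1.21%) above and 173 (1.47%) below at an unadjusted p under 0.05 and a smallest adjusted p of 0.999. No gene named here therefore passed a test, and "higher" and "lower" describe single arrays. Without the doubly treated 24 h array the counts were 0 and 0 for both, with 931 and 645 genes at an unadjusted p under 0.05 for the joint state.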

How the data were processed

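RNA of A20 cells in 6 conditions was hybridised to whole-genome mouse arrays, 1 array per condition. The deposited values are intensities on a linear scale, and GCOS 1.2 is the software named, per the submitters' processing notes. The 2% trimmed mean was 500.0 on every array. The table has 45101 probe sets, of which 34958 carried 1 gene symbol, 932 several and 9211 none listed here, and 34754 were found in RefSeq's gene table. The brightest probe set by its mean over the 6 arrays stood for each of 18194 genes, and a floor of 74.2, the 50th percentile of the table, was applied before log2. The precision is limited by the number of arrays.

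Differences of 2-fold between single arrays were counted with no test. limma 3.58.1 in R 4.3.3 was fitted over all 6 arrays with the 12 h and 24 h arrays as repeats, on the genes that 2 or more arrays had above the floor, with an intensity trend and Benjamini-Hochberg adjustment, and was tested on simulated data. Nothing says that these repeats are separate cultures, and p-values cover the spread between arrays only, which may be technical.

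Genes are named by these rules. They are the 15 largest joint changes in each direction, the 8 brightest genes at the floor on 1 side, the 12 largest departures in each direction, and in each list the 5 largest joint changes and 2 largest departures. Members and lists were chosen with earlier results of these data known. Promoters are RefSeq's windows on GRCm38.p6. Alternatives were other floors, scalings, probe set rules, the scale of the sum, the 12 h arrays, no filter, no trend, and leaving out 1 array.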

Additional observations from a re-analysis of the deposited data

Results flagged for a closer look

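The 18S ribosomal RNA control probe set for the 3′ end had 5878.2 on the array of TGF-β 24 h with SP600125, against 506.5 on the untreated array. It lies outside the gene measurement and was flagged because it stood far above the level of every other array. The other treated arrays had 637.7 to 881.5.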

How the results depend on the processing

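With the floor at the 25th percentile 2639 genes were 2-fold higher and 1274 lower in the joint state, and 788 lay above and 772 below the sum. With it at the 60th percentile 84 lay above and 132 below. Scaling to a common median gave 673 higher and 861 lower genes, and the mean of all probe sets gave 658 higher, 107 above and 144 below the sum. The 12 h arrays gave 559 higher and 226 lower. Summing signals in place of log2 changes gave 322 above and 122 below. In limma without the filter on dim genes 29 genes were higher and 214 lower in the joint state, and 181 above and 225 below additivity, and of these 243 and 406 calls 149 and 334 were of genes above the floor on fewer than 2 arrays. Under the other limma settings, and without each of the 4 arrays taken as repeats in turn, the counts ran from 0 to 0. The cause of the other differences was not tested.

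The median departure turned to -0.255 for MHC class II with signals summed and to 0.0680 for cholesterol at 12 h. It turned for fibroblast markers to -0.1037 under median scaling, -0.0156 under quantile normalization and -0.4831 at 12 h, and for erythroid and platelet markers to -0.2667 at 12 h, lists with 1 and 2 genes in that median. The median joint change of costimulatory genes was -0.0434 with the lower floor. At 12 h the joint change was -1.5868 for Cysrt1 (departure -0.5646), 0.4361 for Mrnip, -0.0168 for Bhlhe40 and -0.114 for Gadd45a. With probe sets averaged it was 0.0741 for Higd1a, and the departure of Sesn2 was 0.2627. No paired analysis was possible because each condition had 1 array. The single array per condition limits every value here, and dim genes had the most departures past 2-fold. Of 170 named genes with a 2-fold joint change, 78 had one over 1.5 times smaller at 12 h and 47 with probe sets averaged, and 4 and 1 had the other sign. Of 43 and 48 named genes with a 2-fold departure, 23 had one over 1.5 times smaller at 12 h and 21 with probe sets averaged. For 12 h the drug-alone array of 24 h had to be used.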
